A study of Mus musculus with 6 samples.

Results

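The RGS (regulator of G protein signalling) genes described here are 10 members of 1 mouse gene family, compared between fibroblasts given p27 and control fibroblasts. The members were Rgs2, Rgs3, Rgs4, Rgs5, Rgs10, Rgs12, Rgs14, Rgs16, Rgs17 and Rgs19, out of 24062 gene symbols in the table. They were chosen as a family on the measured difference in Rgs5, selected on its higher count with p27 in these same libraries. The difference between p27OE and EV control therefore chose the members, and it is given for them as a description with no p-value, and calls on it are counted beside the share of all genes but support nothing. Of the 10 members, 9 passed the filter on low counts and entered the fit over 13990 genes, and Rgs14 did not.

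The RNA came from mouse embryonic fibroblasts (MEFs), which are connective tissue cells cultured from embryos, here of C57BL/6 mice and at day 10. The p27OE group was 3 libraries from MEFs given p27 by lentivirus, and the EV control group was 3 libraries from MEFs that the labels name only as EV control. The EV control titles also hold a dataset tag, and no p27OE title has one. Both groups share strain, cell type and day. Every p27OE title calls its cells senescent, and the EV control titles say control instead. Elsewhere the labels use both senescent and non-senescent. They do not give the promoter behind the p27. They also do not say whether the libraries came from separate cultures or whether the groups were prepared together. P-values therefore measure only the spread between these libraries, which may be technical in part. Libraries of the same group differed by more than counting noise and in the level of Y-linked genes. The chi-square per gene was 6.51 between EV control 2 and 3, and 55.1 to 188 between the other pairs of a group.

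A heterotrimeric G protein signals while its alpha subunit holds GTP, after a G protein coupled receptor has loaded it. RGS proteins bind that active alpha subunit, speed the hydrolysis of GTP and so shorten the signal. Members differ in which alpha subunits they act on and in the domains they carry beside the RGS domain, and in fibroblasts and vascular mural cells they limit signals from receptors for thrombin, endothelin, lysophosphatidic acid and sphingosine 1-phosphate.

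Library totals lay between 39183624 and 61219345 counts. Levels are CPM, a gene's count scaled to the size of its library after correction by edgeR's TMM factors. Cdkn1b, the gene of p27, had 43.9, 31.5 and 32.3 CPM in EV control and 167, 232 and 337 CPM in p27OE, and these counts do not separate the introduced from the endogenous transcript. All 10 fibroblast markers listed (among them Col1a1, Col1a2, Dcn and Pdgfra) were detected, with summed levels of 41300 to 59400 CPM in EV control and 45800 to 48100 CPM in p27OE. The libraries differed in other ways too, among them in the 2 gene lists given next. The summed level of the Y-linked genes Ddx3y, Eif2s3y, Kdm5d and Uty was 0.125, 126 and 124 CPM in EV control and 1.95, 57.2 and 137 CPM in p27OE, so both libraries numbered 1 had almost none. The summed level of 13 macrophage markers was 101 CPM in EV control 1 and between 18.9 and 36.7 CPM in the other 5 libraries.

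The promoters of Rgs5, Rgs17, Rgs4 and Rgs16 are shown first. Rgs5, Rgs17 and Rgs4 were the members whose p27OE libraries all lay above the EV control libraries, and Rgs16 was the tested member that differed most between libraries of 1 group. Each window runs from 250 to 16 bases before the RefSeq start (235 bases, GRCm38, the assembly of mm10), 5′ to 3′ on the gene's strand. Capitals mark matches on either strand to the TATA box, the CCAAT box, the GC box, the CRE, the AP-1 element or the CArG box. The letters searched, other than those of the CArG box, are given beside their shares after the sequences.
Rgs5 (chr1:169655251-169655485, plus strand): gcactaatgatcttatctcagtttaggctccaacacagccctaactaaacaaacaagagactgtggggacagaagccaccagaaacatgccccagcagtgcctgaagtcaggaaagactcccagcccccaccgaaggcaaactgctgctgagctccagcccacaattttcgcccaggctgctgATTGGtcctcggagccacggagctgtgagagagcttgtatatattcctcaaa
Rgs4 (chr1:169747658-169747892, minus strand): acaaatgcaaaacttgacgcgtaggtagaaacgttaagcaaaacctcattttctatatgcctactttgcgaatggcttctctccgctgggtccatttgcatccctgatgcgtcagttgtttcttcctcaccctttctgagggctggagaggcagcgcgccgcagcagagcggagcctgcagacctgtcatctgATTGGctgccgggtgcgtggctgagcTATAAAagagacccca
Rgs17 (chr10:5922416-5922650, minus strand): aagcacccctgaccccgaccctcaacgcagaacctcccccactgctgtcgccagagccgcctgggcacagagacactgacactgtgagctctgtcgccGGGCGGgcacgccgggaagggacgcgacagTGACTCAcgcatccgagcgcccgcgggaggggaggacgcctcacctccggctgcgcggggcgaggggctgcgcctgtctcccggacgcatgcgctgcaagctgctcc
Rgs16 (chr1:153740103-153740337, plus strand): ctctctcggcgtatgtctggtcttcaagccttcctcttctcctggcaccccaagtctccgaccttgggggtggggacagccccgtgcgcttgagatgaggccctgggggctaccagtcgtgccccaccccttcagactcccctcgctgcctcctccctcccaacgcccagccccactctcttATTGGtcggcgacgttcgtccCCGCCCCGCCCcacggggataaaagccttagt

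Rgs5 held a single match, a CCAAT box on the other strand at 67 to 63 bases before the start. Rgs4 and Rgs16 held a CCAAT box in the same orientation and nearly the same place, at 57 to 53 and at 68 to 64 bases before the start. Rgs17 held none, and CCAAT occurred in 32.6% of the 32851 promoter windows of this length. Rgs4 alone of these 4 held TATAAA, at 31 to 26 bases before its start, against 11.9% of all windows. Rgs16 held 2 overlapping GC boxes at 47 to 37 bases before the start, and Rgs17 held 1 GC box at 152 to 147 bases. The GC box (GGGCGG) occurred in 30.6% of all windows. The Rgs17 window also held an AP-1 element, TGACTCA, at 122 to 116 bases before the start, and 6.48% of all windows held TGANTCA. No window of the 4 held the cAMP response element (CRE, TGACGTCA) or the CArG box, which occurred in 1.37% and 1.42% of all windows. E-boxes (CANNTG, not capitalised) were in 64.1% of all windows, and Rgs4 had 4 of them. The windows of Rgs17 and Rgs16 were rich in G and C (71.5% and 65.1%), with 25 and 15 CpG dinucleotides, against medians of 51.9% and 5 over all windows. Those of Rgs5 and Rgs4 lay near the median in base content (52.3% and 52.8%), with 4 and 12 CpG dinucleotides. These matches describe letters only, since no binding was measured here.

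The levels of the members differed widely within the same cells. Levels between genes are compared as CPM per kb of exon. In EV control, Rgs19 was highest at 30.0 ± 2.05 CPM per kb (SD, n = 3) and Rgs16 came next at 16.2 ± 9.51. Every Rgs19 library lay above every Rgs16 library in that group. Then came Rgs4 (9.6 ± 1.99), Rgs12 (7.36 ± 0.459) and Rgs10 (6.78 ± 0.715), and the libraries of each neighbouring pair from Rgs16 to Rgs10 overlapped. Rgs3 followed at 4.05 ± 0.66, below Rgs10 in every library. The lower end was formed by Rgs17 (1.88 ± 0.371), Rgs2 (1.34 ± 0.677) and Rgs5 (0.818 ± 0.159), whose neighbours again overlapped, and Rgs14 was lowest at 0.0734 ± 0.0927.

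In p27OE the same per-length scale placed Rgs19 (27.3 ± 1.16), Rgs16 (21.7 ± 15.3) and Rgs4 (19.2 ± 4.27) together at the top, and neighbours in this order overlapped. Rgs12 (7.68 ± 0.817) lay below Rgs4 and above Rgs10 (5.4 ± 0.966) in every library. Rgs17 (4.55 ± 1.14) now stood above Rgs3 (4.06 ± 0.142), with overlap between them and between Rgs10 and Rgs17. Rgs5 (2.36 ± 0.217) stood above Rgs2 (1.27 ± 0.309) without overlap, the reverse of the order of their means in EV control. The members' summed level, on the plain CPM scale, was 233, 258 and 265 CPM in EV control and 305, 305 and 339 CPM in p27OE, without overlap. The largest differences of means were in Rgs4 (28.2 and 56.4 CPM) and Rgs17 (15.6 and 37.7 CPM). Of the 9 tested members, 3 had a fold change below 0. The difference between groups chose the members, so nothing is read from their sum.

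**Figure D1:**
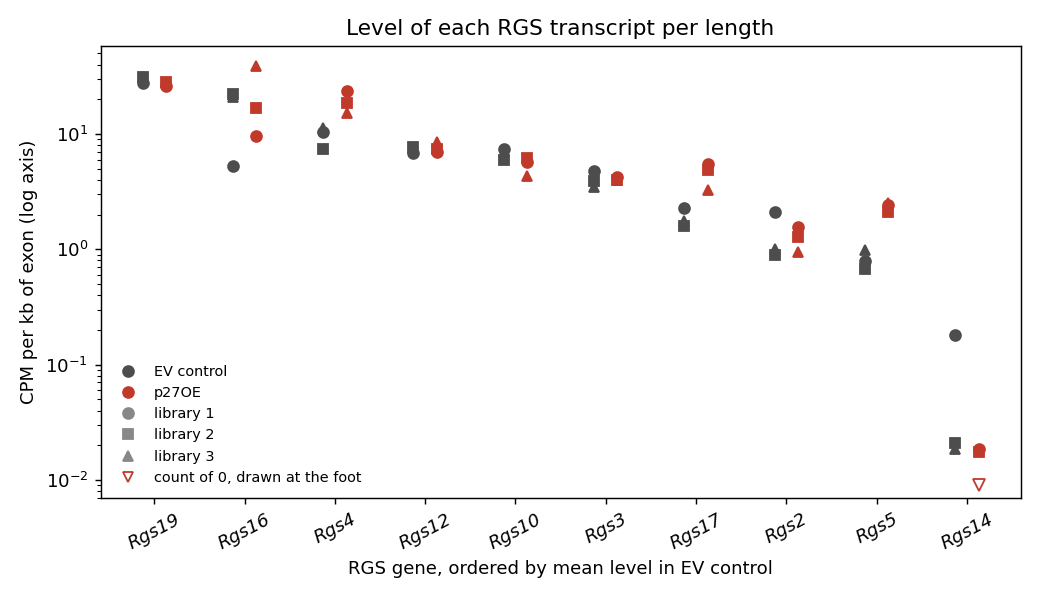
Level of each member in each library, as CPM per kb of exon on a log axis (n = 3 libraries per group), ordered by the EV control mean. Rgs19 led in both groups (means of 30.0 and 27.3), Rgs14 was lowest, and the open triangle stands for its count of 0 in p27OE 3.

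Of the 9 tested members, 2 (Rgs5 and Rgs17) were past the threshold of an adjusted p under 0.05 (edgeR) and higher in p27OE, and 0 were lower. Over all genes tested, 2.61% were past it, 1.77% higher and 0.843% lower. The members were chosen through this contrast, so nothing is read from that count. The fold change was above 0 for 6 members and below 0 for 3, with a median of 0.06 on the log2 scale, beside 0.01 over all genes tested. The groups did not overlap in 3 of the 9 tested members (Rgs4, Rgs5 and Rgs17), all higher in p27OE. Of all genes tested, 33.3% did not overlap, 16.8% higher and 16.5% lower. Without EV control 2, EV control 3 or any single p27OE library, 0 members were past the threshold, and in each of those 5 fits at most 2 genes of the whole table were.

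**Figure D2:**
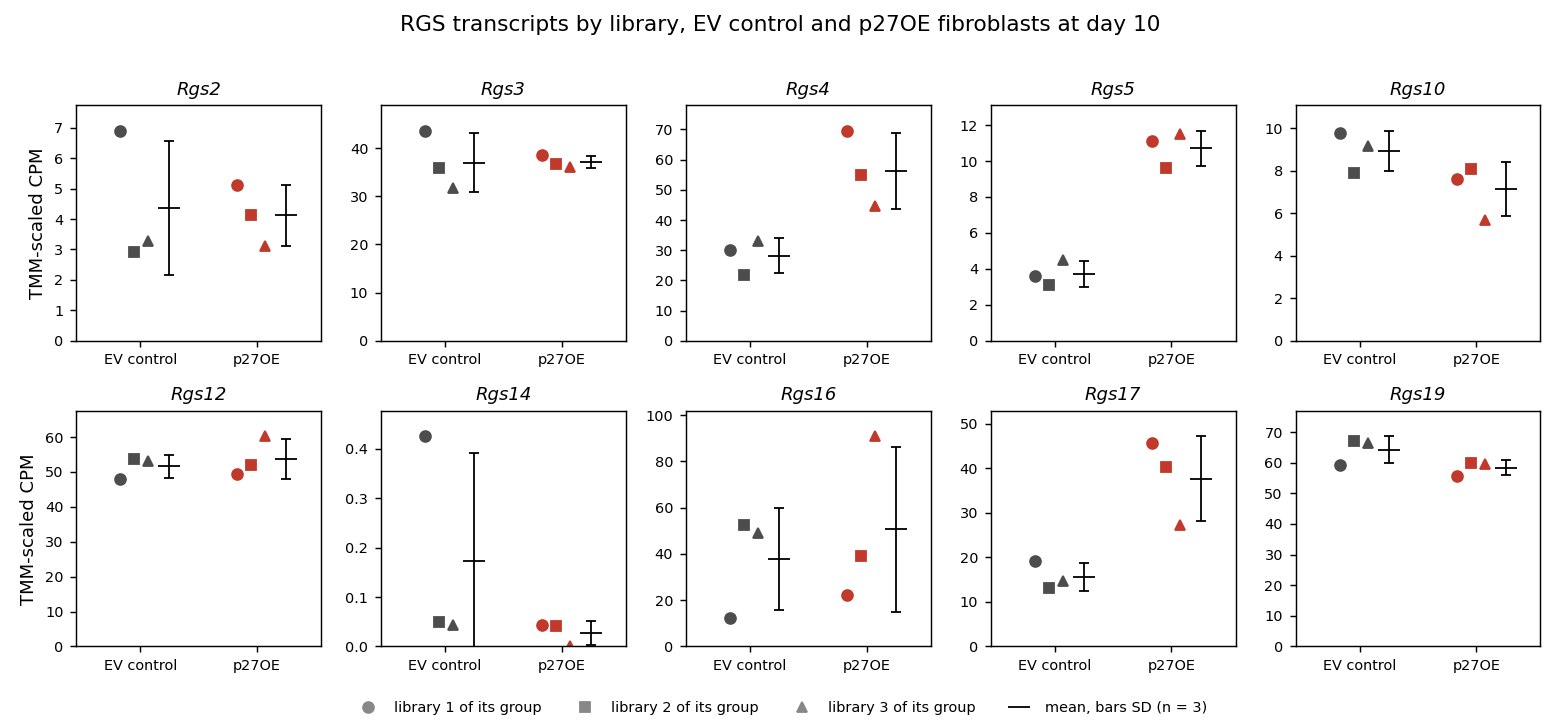
TMM-scaled CPM of each member in each library, with the mean and SD of 3 libraries per group and axes that start at 0. Of the tested members, Rgs4, Rgs5 and Rgs17 separate the groups. Rgs16 spreads from 12.2 to 90.8 CPM across both, and Rgs12 and Rgs19 vary little.

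Rgs5 belongs to the R4 subfamily and acts on Gi and Gq alpha subunits. The members of R4 are mostly small proteins, little more than an RGS domain with an amphipathic N-terminus that reaches the membrane. It is widely used as a marker of pericytes. It had 3.58, 3.08 and 4.5 CPM in EV control and 11.1, 9.6 and 11.5 CPM in p27OE. The lowest p27OE library was thus above the highest EV control library, and the spread within p27OE was narrow. The means were 3.72 ± 0.722 and 10.7 ± 0.986 CPM (SD, n = 3), a ratio of 2.88 and a log2 fold change of 1.53 ± 0.18 (SE). The raw counts behind these values were 143, 186 and 205 in EV control and 512, 468 and 477 in p27OE. The difference was about the same size in libraries without and with Y-linked reads. It was 1.62 on the log2 scale between p27OE 1 and EV control 1, and 1.61 between p27OE 3 and the mean of EV control 2 and 3.

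Since Rgs5 marks pericytes, the other genes of the pericyte list are given beside it. Their summed level was 574 to 622 CPM in EV control and 679 to 851 CPM in p27OE. Of the 8 tested genes on that list, 6 had a fold change above 0 and 2 below. Only Cspg4, a proteoglycan of pericytes and other mesenchymal cells, was past the threshold, as were 2.61% of all genes tested. Cspg4 rose from 141, 154 and 165 CPM to 230, 229 and 289 CPM (log2 fold change 0.70 ± 0.12, edgeR adjusted p = 0.045). When the Y-linked level was added to the model, 3 of the 8 were past the threshold and higher and 1 lower. Over all genes tested, those shares were 18% and 16%. Slopes with the Y-linked level itself, described further on, were past the threshold upward in 3 of the 8 and downward in 5. Of all genes tested, 16.4% and 15.7% had such slopes. Cspg4 was not past the threshold when any single library other than EV control 1 was left out (edgeR adjusted p = 0.0715 to 0.215). The more specific markers were scarce. Kcnj8, a potassium channel subunit, lay between 0.909 and 3.22 CPM over the 6 libraries, and its partner Abcc9 between 2.35 and 7.23 CPM. Higd1b and Vtn did not exceed 0.041 CPM in any library. The part of other cell types in the Rgs5 values was not tested, and in bulk RNA more cells that express a gene and more RNA per cell cannot be told apart.

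Rgs4, of the same subfamily, also acts on Gi and Gq and, like Rgs5 and Rgs16, is known as a protein degraded through its N-terminal cysteine. It had 30.2, 21.7 and 32.9 CPM in EV control and 69.6, 55.0 and 44.6 CPM in p27OE. The groups did not overlap, but the p27OE libraries were spread more widely than for Rgs5. The means were 28.2 ± 5.86 and 56.4 ± 12.6 CPM (SD, n = 3), a ratio of 2.0 and a log2 fold change of 1.0 ± 0.21 (SE). This value was not past the threshold over all genes with the group as the only term. It was past it with DESeq2 (as were 16.6% of all genes, 8.18% higher and 8.41% lower), with the replicate number as a block (17.2% of all genes, 9.23% higher and 8% lower) and when the Y-linked level was added (34% of all genes). Nothing is read from these calls, since the contrast chose the members. The difference was 1.21 (log2) between the libraries numbered 1 and 0.74 between p27OE 3 and the mean of EV control 2 and 3.

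Rgs4 and Rgs5 are neighbours on mouse chromosome 1 and point at each other. Rgs5 spans chr1:169655501-169695813 on the plus strand and Rgs4 spans chr1:169741477-169747642 on the minus strand, with 45663 bases between their 3′ ends (GENCODE M21). The table held 6 other protein-coding genes within 500000 bases of the pair, of which 5 were tested and 0 were past the threshold in either direction. The kinetochore gene Nuf2 had a mean of 52.7 ± 6.96 CPM in EV control, against 30.8 ± 11.4 CPM in p27OE. The sterol enzyme gene Hsd17b7 had 35.3 ± 7.09 and 52.5 ± 10.6 CPM. Their log2 differences were −0.78 ± 0.27 and 0.57 ± 0.20 (SE). Uhmk1, a kinase gene, differed by 0.51 ± 0.18, and Ddr2 and Uap1 each differed by 0.08, so 4 of the 5 tested neighbours had a value above 0.

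Rgs16, the other R4 member with a high level, is a regulator of Gi and Gq whose transcript is known to be inducible. It lies at chr1:153740349-153745468 on the plus strand. It had 12.2, 52.3 and 49.0 CPM in EV control and 22.3, 39.1 and 90.8 CPM in p27OE. The highest library exceeded the lowest by 4.28-fold within EV control and by 4.07-fold within p27OE, and the groups overlapped. The means were 37.8 ± 22.2 and 50.7 ± 35.7 CPM (SD, n = 3), and the log2 fold change was 0.42 ± 0.67 (SE), a difference smaller than its error. The order of the libraries followed the Y-linked level, as the slopes given further on describe. With that level as a term in the model, the log2 fold change was 0.72 ± 0.06. It was 0.87 between the libraries numbered 1 and 0.84 between p27OE 3 and the mean of EV control 2 and 3.

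Rgs2 (chr1:143999338-144004161, minus strand) and Rgs3 (chr4:62559847-62704001, plus strand) complete the R4 members. Rgs2, which acts preferentially on Gq, had 6.9, 2.91 and 3.29 CPM in EV control and 5.11, 4.14 and 3.1 CPM in p27OE. The groups overlapped, EV control 1 was the highest library, and the log2 difference was −0.08 ± 0.38 (SE). Without EV control 1 the difference was 0.40, of the opposite sign. EV control 1 was also the library with the highest macrophage marker sum, 101 CPM. The next highest library for Rgs2, p27OE 1, had a sum of 20.4 CPM. The part of macrophages in the Rgs2 values was not tested. Rgs3, which has long forms with further domains, had 43.6, 35.8 and 31.7 CPM in EV control and 38.6, 36.7 and 36.1 CPM in p27OE. The p27OE libraries lay within the EV control range, and the means were 37.0 ± 6.04 and 37.1 ± 1.3 CPM.

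Rgs17 and Rgs19 are of the RZ subfamily, small proteins that act on Gz and other Gi-class alpha subunits and carry a palmitoylated stretch of cysteines. Rgs17 lies at chr10:5825663-5922400 and Rgs19 at chr2:181688419-181693977, both on the minus strand. Rgs17 had 19.1, 13.2 and 14.6 CPM in EV control and 45.6, 40.4 and 27.2 CPM in p27OE. The groups did not overlap, and p27OE 3 was nearest to EV control. The means were 15.6 ± 3.08 and 37.7 ± 9.49 CPM (SD, n = 3), a ratio of 2.42 and a log2 fold change of 1.27 ± 0.23 (SE). It was no longer past the threshold with upper-quartile or total-count scaling, while the fold change stayed between 1.10 and 1.46 over all alternatives. Rgs19 had 59.2, 67.2 and 66.3 CPM in EV control and 55.5, 60.0 and 59.7 CPM in p27OE. It had the highest mean CPM of the members, the groups overlapped, and its log2 difference was −0.14 ± 0.08.

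Rgs10 (chr7:128373621-128418758, minus strand), Rgs12 (chr5:34949445-35039644, plus strand) and Rgs14 (chr13:55369732-55384687, plus strand) are of the R12 subfamily. Rgs12 and Rgs14 carry a GoLoco motif, which binds inactive Gi alpha, and Ras-binding domains beside the RGS domain, and Rgs10 is little more than the RGS domain. Rgs12 had 47.9, 53.8 and 53.2 CPM in EV control and 49.3, 51.9 and 60.2 CPM in p27OE. The groups overlapped, with a log2 difference of 0.06 ± 0.10. Rgs10 had 9.75, 7.9 and 9.15 CPM in EV control and 7.6, 8.08 and 5.67 CPM in p27OE. The means were 8.94 ± 0.942 and 7.12 ± 1.27 CPM, a log2 difference of −0.33 ± 0.17, and p27OE 2 lay within the EV control range. With 1 library left out the difference was between −0.44 and −0.19.

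Rgs14 was close to absent and was not tested. It had 17, 3 and 2 counts in EV control and 2, 2 and 0 counts in p27OE. In CPM the groups did not overlap, with p27OE lower, but only narrowly. EV control 3 was at 0.0439 CPM and p27OE 1 at 0.0433 CPM, from 2 counts each. EV control 1 stood apart at 0.425 CPM (exact Poisson 95% interval 0.248 to 0.68, counting error only), and the next library was at 0.0496 CPM. The 0 counts of p27OE 3 have an exact Poisson 95% interval that reaches 0.0886 CPM, where 3 counts would be 0.0721 CPM. EV control 1 was again the library with the macrophage marker sum of 101 CPM, and the part of that in the Rgs14 counts was not tested.

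The table held 12 further RGS symbols, none of them a member, and together they amounted to 5.42 to 6.73 CPM in EV control and 3.96 to 5.53 CPM in p27OE. Of these, 5 were tested and 0 were past the threshold. Rgs11, which works as a complex with the beta subunit Gnb5, had 5.3, 5.44 and 4.48 CPM in EV control and 2.12, 3.69 and 3.34 CPM in p27OE. All 3 p27OE libraries were lower, with a log2 difference of −0.73 ± 0.24 (edgeR adjusted p = 0.122). Rgs6, of the same R7 subfamily, had 5, 8 and 6 counts in EV control and 29, 15 and 16 counts in p27OE (log2 difference 1.74 ± 0.43, edgeR adjusted p = 0.0719). Rgs8, Rgs9 and Rgs20 had adjusted p-values of 0.285, 0.576 and 0.375. Rgs13 had no count in any library, and Rgs18, a gene of platelets and other blood cells, had 8 counts in EV control 1 and 0 in the other 5.

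The rest of the pathway was described with 129 gene symbols of G protein signalling outside the RGS genes proper. Grk2 and Grk3 were listed also under their older symbols, Adrbk1 and Adrbk2, which are the ones in the table. Of the 129 symbols, 126 were in the table and 105 tested. Of these, 5 rose and 0 fell, where 1.77% of all genes tested were past the threshold and higher and 0.843% lower. Among the 105, 61 had a fold change above 0 and 44 below, and the median was 0.08 (log2) beside 0.01 over all genes tested. By role, the 13 tested alpha subunits and the 13 tested beta and gamma subunits had 0 genes past the threshold. The 15 tested effectors had 2 that rose, the 40 tested receptors had 2, and the 14 tested proteins with an RGS homology domain had 1. The 2 tested RGS binding partners and the 8 other regulators had 0.

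Among the effectors, the adenylyl cyclase gene Adcy5 had 1.95, 1.36 and 1.29 CPM in EV control and 4.85, 4.92 and 6.7 CPM in p27OE. It rose in every p27OE library, with a log2 fold change of 1.84 ± 0.25 (edgeR adjusted p = 0.0303). Adcy6, the other cyclase gene that rose, had 131, 120 and 133 CPM in EV control and 164, 177 and 183 CPM in p27OE. Its log2 fold change of 0.45 ± 0.08 was smaller (edgeR adjusted p = 0.047). Both encode cyclases that Gi alpha inhibits, and Rgs4, Rgs5 and Rgs16 are among the members that act on Gi alpha. A link between these cyclase genes and the members was not tested.

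Among the receptors, Adra1d, a Gq-coupled adrenergic receptor, had 30.3, 23.7 and 27.2 CPM in EV control and 59.3, 55.3 and 49.8 CPM in p27OE. It rose by 1.02 ± 0.12 on the log2 scale (edgeR adjusted p = 0.0303), and the groups did not overlap. F2r, the thrombin receptor gene, had 214, 200 and 216 CPM in EV control and 282, 302 and 327 CPM in p27OE, a rise of 0.53 ± 0.09 (edgeR adjusted p = 0.0418). The receptor kinase gene Grk4, which carries an RGS homology domain, had 2.48, 2.33 and 2.26 CPM in EV control and 4.22, 4.57 and 4.47 CPM in p27OE. It rose by 0.91 ± 0.16 (edgeR adjusted p = 0.045), again without overlap. None of these 5 genes was past the threshold when any single library other than EV control 1 was left out (edgeR adjusted p = 0.0682 to 0.224). Adcy6 and Grk4 were also not past it without a filter on low counts (0.0513 and 0.0521), nor was Grk4 with total-count scaling (0.0507).

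Another 10 of these 105 genes had an adjusted p from 0.05 to below 0.1, of which 5 had a fold change above 0, among them Gnaq and Gnai1, and 5 below, among them Arrb2. F2rl1, a protease-activated receptor gene, was nearest to the threshold, with a mean of 20.4 ± 6.79 CPM in EV control, against 7.49 ± 2.06 CPM in p27OE (log2 difference −1.45 ± 0.31, edgeR adjusted p = 0.0607, no overlap). It was picked out after its values were seen, as were Snx25 (−0.45 ± 0.11, edgeR adjusted p = 0.0681) and the cyclase gene Adcy4 (−0.53 ± 0.14, edgeR adjusted p = 0.0769). All 3 had lower values in each p27OE library than in any EV control library. Gnaq, the Gq alpha subunit, had a mean of 70.5 ± 1.59 CPM in EV control, against 87.0 ± 4.95 CPM in p27OE (SD, n = 3, log2 difference 0.30 ± 0.07, edgeR adjusted p = 0.0649). Gnai1, a Gi alpha subunit, had 12.2 ± 2.67 and 18.6 ± 1.89 CPM (0.61 ± 0.17, edgeR adjusted p = 0.0928). Gnb5, the beta subunit that stabilises the R7 proteins and the nearest of the binding partners, had 20.5 ± 0.558 and 24.7 ± 1.77 CPM (0.27 ± 0.08, edgeR adjusted p = 0.107). In the other direction, the arrestin gene Arrb2 had 8.96 ± 1.25 and 5.15 ± 1.28 CPM (−0.80 ± 0.22, edgeR adjusted p = 0.0887).

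**Figure D3:**
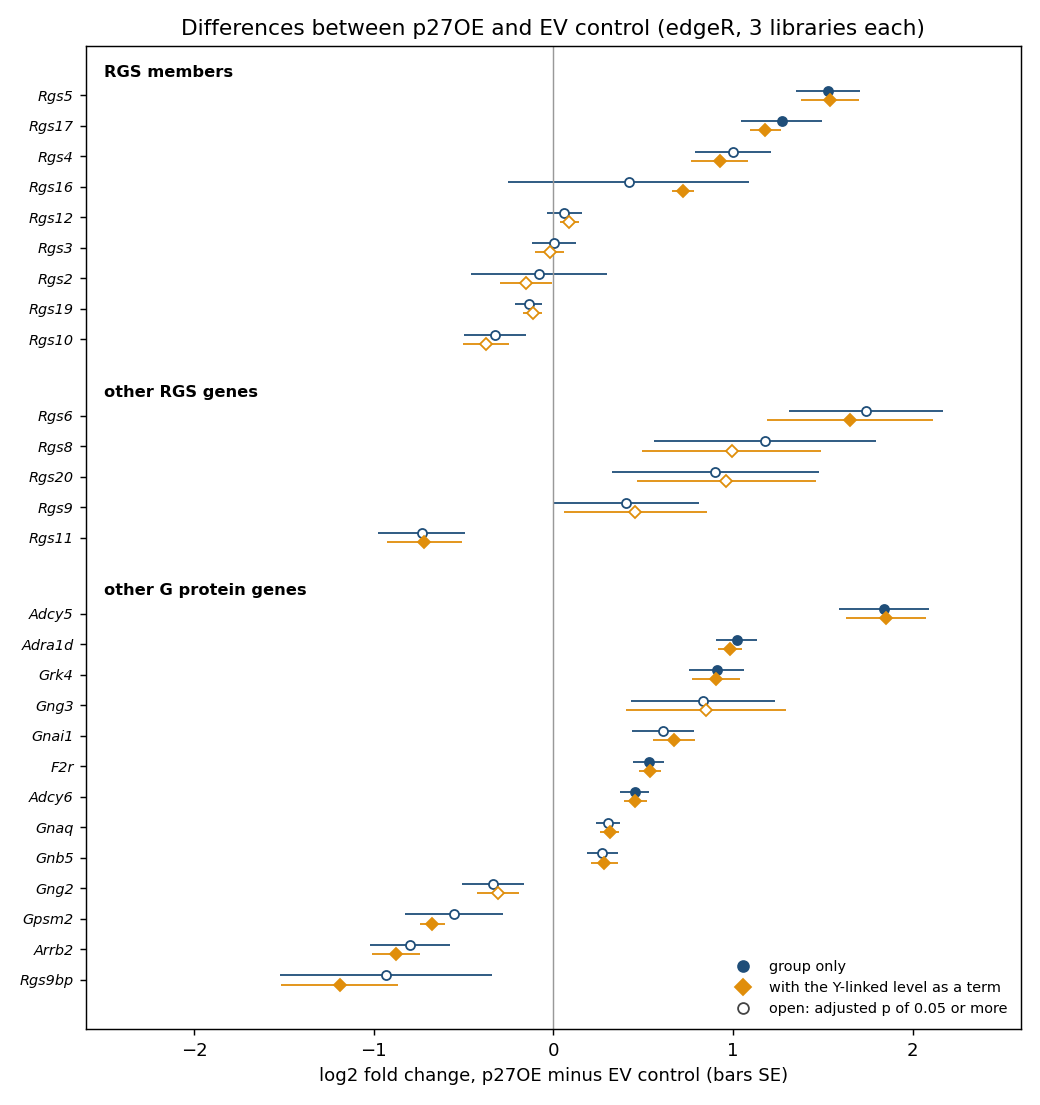
Log2 fold changes (p27OE minus EV control, bars SE, 3 libraries per group) of the tested members, the other tested RGS genes and the named G protein genes, with the group as the only term (circles) and with the Y-linked level added (diamonds). Filled symbols have an adjusted p under 0.05 (edgeR), the members' contrast being the one that chose them. Rgs5 leads the members at 1.53 and Rgs16 has the widest error, 0.67, which narrows to 0.06 with the Y-linked level.

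When the Y-linked level was added to the model, the same 9 members had 4 past the threshold and higher (Rgs4, Rgs5, Rgs16 and Rgs17) and 0 lower. Over all genes, 34% were past it in that fit, 18% higher and 16% lower, against 1.77% and 0.843% with the group alone. The members' log2 fold changes were 0.93 ± 0.16 for Rgs4, 1.54 ± 0.16 for Rgs5, 0.72 ± 0.06 for Rgs16 and 1.18 ± 0.09 for Rgs17. Of the 105 other G protein genes, 27 were higher and 18 lower in that fit. Gnaq (edgeR adjusted p = 0.00587) and Gnai1 (0.00601) were among the higher and Arrb2 (0.00392) among the lower. This term was added after the data had been seen, and the contrast is still the one that chose the members. The members' count in that fit is therefore a description, and nothing is read from it.

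The slope with the Y-linked level is a comparison that the choice of members did not use. It is the log2 difference between a library with no Y-linked reads and the library with the most, at equal group. Of the 9 tested members, 4 had a slope past the threshold, 2 upward and 2 downward. Over all genes tested, 32.1% had one, 16.4% upward and 15.7% downward, and nothing particular to the members is read from their count.

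The steepest member was Rgs16, with a slope of 2.15 ± 0.08 (edgeR adjusted p = 1.35e-05). Its level was 12.2 and 22.3 CPM in the 2 libraries with almost no Y-linked reads, 39.1 CPM in p27OE 2 with an intermediate level, and 49.0 to 90.8 CPM in the 3 others. The smooth muscle markers stood in a similar order, with sums of 5970, 10800 and 10900 CPM in EV control and 7180, 9920 and 15000 CPM in p27OE. Their part in the Rgs16 values was not tested. Rgs2 had a slope of −1.03 ± 0.17 (edgeR adjusted p = 0.00392) and was highest in the same 2 libraries, at 6.9 and 5.11 CPM. Rgs17 had a slope of −0.63 ± 0.10 (edgeR adjusted p = 0.00318), which ran within each group beside the difference between groups.

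Rgs12 had a shallow slope of 0.23 ± 0.06 (edgeR adjusted p = 0.0274). It was not past the threshold with upper-quartile scaling (0.19, adjusted p = 0.0561) or total-count scaling (0.14, adjusted p = 0.0967). Leaving out any single library other than EV control 1 also lost it, with adjusted p-values of 0.0573 to 0.106. The slope of Rgs5 was 0.07 ± 0.19 (edgeR adjusted p = 0.796), not past the threshold, and its sign changed in 3 of 12 alternatives. Rgs4 (−0.40 ± 0.19, adjusted p = 0.142), Rgs10 (−0.32 ± 0.15, adjusted p = 0.144), Rgs3 (−0.26 ± 0.10, adjusted p = 0.0782) and Rgs19 (0.15 ± 0.06, adjusted p = 0.113) did not pass. Some of these slopes did with 1 change: Rgs3 with upper-quartile scaling (−0.30, adjusted p = 0.042), with total-count scaling (−0.34, adjusted p = 0.0217) and without p27OE 3 (−0.34, adjusted p = 0.0109), Rgs4 without EV control 3 (−0.58, adjusted p = 0.00685) and Rgs19 without p27OE 3 (0.19, adjusted p = 0.031). With 1 library left out, the Rgs4 slope lay between −0.67 and −0.25. Day and strain were the same in all libraries, and what sets the Y-linked level was not tested.

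**Figure D4:**
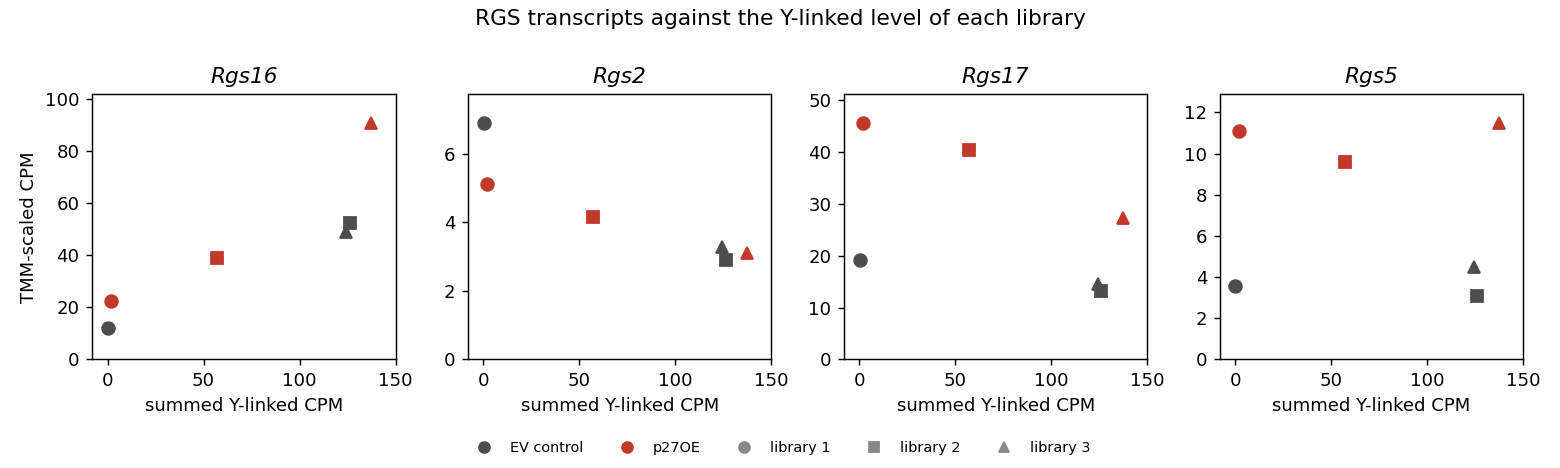
TMM-scaled CPM of Rgs16, Rgs2, Rgs17 and Rgs5 (vertical axes, from 0) against the summed CPM of 4 Y-linked genes (horizontal axes), 1 point per library. Rgs16 rises from 12.2 to 90.8 CPM along the axis, Rgs2 is highest at the left, and Rgs17 shows 2 groups that both slope downward. For Rgs5, every p27OE library lies above every EV control library. No EV control library has an intermediate Y-linked level.

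Profiles over the 6 libraries were compared by the root mean square difference of centred log2 CPM, a description over libraries that share the group difference. Among members, Rgs12 and Rgs19 were closest (0.12), and Rgs4 was closest to Rgs17 (0.22). Other genes were compared if their log2 CPM averaged 2 or more, with symbols of predicted genes and clones left out (10324 genes). Among these, the closest to Rgs5 were Tmem151a (0.18), Cemip (0.19), Gpnmb (0.20), Ano3 (0.22) and Timp2 (0.22). The median gene was at 0.80. The closest to Rgs19 were Sestd1, Suclg2, Psme3, Zfp326 and Sf3a1, all at 0.01, where the median gene was at 0.19.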

How the data were processed

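Counts of reads per gene symbol were deposited by the authors as 1 table of 6 columns, each matched to 1 sample by title. The submitters' processing notes name mm10 as the genome, featureCounts 1.4.6 (Subread) and the aligners TopHat2 2.0.14 and Bowtie2 2.2.6. The kit was TruSeq RNA Library Prep v2, per the labels' protocols. The annotation, strand setting and filters are not given in the sources used here, so overlapping or antisense genes may share counts. Of counts from 1 to 49, 62.2% to 64.7% were even, and whether mates were counted singly was not given.

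The members and lists were chosen with earlier results of these data known. Low genes were removed with filterByExpr, and the rest were fitted in R 4.3.3 with edgeR 4.0.16 (TMM factors, robust glmQLFit, two-sided glmQLFTest), with Benjamini-Hochberg adjustment over 13990 genes. CPM and per-kb levels (exon union of GENCODE M21, 10 of 10 members matched) were computed from the deposited counts. The script was tested on simulated data. Genes named outside the members were those of each list past the threshold or with its smallest p-values, and 1 gene is not reported here. The alternatives were scaling by total counts, upper quartile or RLE, a filter of 1 CPM in 3 libraries or none, limma-voom (3.58.1), DESeq2 1.42.0, the replicate block, and fits without Cdkn1b or without each library. Added after seeing the data were the Y-linked term, both libraries numbered 1 left out, and halved counts. Promoters came from RefSeq (GRCm38.p6), with 9 of 10 members matched (not Rgs14). Of the markers of other cell types, summed levels over the libraries were at most 0.123 CPM for lymphocytes, 60.0 for platelets, 7.86 for endothelium, 8.15 for epithelium and 103 for neural cells.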

Additional observations from a re-analysis of the deposited data

How the results depend on the processing

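Over 162 alternative values of the members' log2 fold changes, 131 kept their direction and side of the threshold, 12 were no longer past it, 4 became so and 15 changed sign. The changes of sign were all in members close to 0 or widely spread. Rgs3 was at −0.0060 with upper-quartile scaling, −0.015 without a filter and −0.020 with the Y-linked term. Rgs2 was at 0.065 with limma-voom and 0.21 without both libraries numbered 1. Leaving out 1 library at a time gave −0.097 to 0.12 for Rgs3, −0.31 to 0.40 for Rgs2, −0.031 to 0.10 for Rgs12 and −0.31 to 0.75 for Rgs16. Of 108 alternative values of the members' slopes with the Y-linked level, 93 kept direction and side of the threshold, 7 lost it (all Rgs12), 5 gained it and 3 changed sign. The slope of Rgs5 was −0.018 with total-count scaling and −0.046 to 0.19 with 1 library left out.

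The number of genes past the threshold, 365 with the group alone, was 2321 with DESeq2, 2334 without both libraries numbered 1, 4761 with the Y-linked term and 1 to 1827 with 1 library left out. Of all genes past it, 67.7% were higher in p27OE, against 49.3% with DESeq2, 53.6% with the replicate block, 46.7% without both libraries numbered 1 and 52.9% with the Y-linked term. The number of members past it, 2, was 1 with upper-quartile and 1 with total-count scaling, 4 with the Y-linked term and 0 to 2 with 1 library left out.

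With the replicate number as a block, 2410 genes and 3 members were past the threshold. Deviations from the group means correlated at 0.67, 0.04 and 0.50 between libraries of the same number, and at 0.56 between EV control 2 and p27OE 3. These correlations do not settle whether the numbers pair the libraries. The labels do not say that they do, so the numbers were treated as names only. With 3 libraries per group, the widest errors among members were those of Rgs16 and Rgs2, and for Rgs14 counts of 0 to 17 allow no comparison.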
